A study of Mus musculus with 16 samples.

Results

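The 7 genes described here are the anterior Hox genes of paralog groups 1 to 3 that were followed in these data: Hoxb1 and Hoxd1 of group 1, Hoxa2 and Hoxb2 of group 2, and Hoxa3, Hoxb3 and Hoxd3 of group 3. They were taken by gene symbol from the 26411 genes with a read count in each embryo, and all 7 passed the filter on low counts that left 15679 genes to be tested. The RNA-seq data came from 16 mouse embryos, each taken whole at E9.5, with 4 of each of 4 genotypes on a mixed FVB and BALB/c background. Kat6a+/+Kat6b+/+ embryos were wild type. Kat6a-/-Kat6b+/+ embryos were homozygous for a Kat6a allele that lacks a run of internal exons. Kat6a+/+Tg(Kat6b) embryos had normal Kat6a alleles and a bacterial artificial chromosome with Kat6b as an extra transgene, all from a single founder line, and Kat6a-/-Tg(Kat6b) embryos combined the transgene with the Kat6a null alleles. Each genotype had 2 female and 2 male embryos. Wild-type embryos shared litters 801 and 803 with the Kat6a-/-Kat6b+/+ embryos and litters 2597 and 2598 with the Kat6a+/+Tg(Kat6b) embryos, whereas the Kat6a-/-Tg(Kat6b) embryos came from litters 483 and 498, which held no embryo of another genotype, so that their genotype and their litters cannot be told apart. Embryos are separate animals, but littermates share a mother, and the tests below treat them as independent. In RNA of whole embryos, fewer cells that express a gene and less mRNA per cell cannot be told apart.

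Hox genes encode homeodomain transcription factors that give cells along the head-to-tail axis their positional identity. In mammals they lie in 4 clusters, and the genes at the 3′ end of a cluster are switched on first and reach furthest towards the head, into the hindbrain, the cranial neural crest and the pharyngeal arches. Retinoic acid, Cdx factors and the proteins' own PBX and MEIS partners act on their control elements, while polycomb complexes repress them and histone acetyltransferases of the KAT6 family counter that repression. The question put to the data was how the mRNA level of these anterior genes depended on Kat6a and on extra copies of Kat6b.

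The upstream sequences of 3 members are shown because Hoxb1 and Hoxd3 were lower in Kat6a-/-Kat6b+/+ embryos while Hoxa2 did not pass the test, and because these were the 3 of 5 members with an upstream window in the RefSeq table whose window held a stretch outside every annotated exon. Hoxb2 and Hoxb3 had no entry. The table gives the windows for GRCm38.p6, and each was placed in GRCm39 by an exact match. The bases run 5′ to 3′ on the gene's strand and end at the gene's start in the GENCODE annotation of GRCm39, which is the mm39 build of the count files. Hoxb1 is shown from chr11:96256334-96256577 on the plus strand, Hoxd3 from chr2:74542087-74542270 on the plus strand and Hoxa2 from chr6:52141812-52142061 on the minus strand. Capitals mark matches, on either strand, to TGATNNAT (a site bound by PBX with HOX proteins), TGACAG (bound by MEIS), TTTATG (bound by CDX) and AGGTCA (bound by retinoic acid receptors and other nuclear receptors).
Hoxb1: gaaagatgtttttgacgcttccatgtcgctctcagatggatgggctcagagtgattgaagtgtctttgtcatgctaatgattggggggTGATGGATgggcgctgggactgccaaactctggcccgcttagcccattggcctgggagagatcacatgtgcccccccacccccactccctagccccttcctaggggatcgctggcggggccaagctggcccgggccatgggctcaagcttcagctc
Hoxd3: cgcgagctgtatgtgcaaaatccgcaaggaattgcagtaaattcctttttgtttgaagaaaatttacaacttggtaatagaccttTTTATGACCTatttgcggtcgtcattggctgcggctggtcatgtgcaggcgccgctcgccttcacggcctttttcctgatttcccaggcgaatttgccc
Hoxa2: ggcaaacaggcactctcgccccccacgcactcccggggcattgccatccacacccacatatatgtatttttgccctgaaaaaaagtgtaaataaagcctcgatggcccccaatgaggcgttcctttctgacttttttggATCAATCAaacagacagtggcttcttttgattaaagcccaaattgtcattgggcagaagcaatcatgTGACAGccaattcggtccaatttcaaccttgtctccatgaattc
The Hoxb1 stretch held TGATGGAT, 162 to 155 bases before the RefSeq start. The Hoxd3 stretch held TTTATG, 165 to 160 bases before it, which overlapped TGACCT, the reverse complement of AGGTCA. The Hoxa2 stretch held ATCAATCA, the PBX-HOX letters on the other strand, and TGACAG. Among 32851 mouse promoter windows of 250 bases, TGATNNAT was found in 7.68%, TGACAG in 15.9%, AGGTCA in 14% and TTTATG in 10.8%. TATAAA, searched in the same way, was in 12.4% of the windows and in none of the 5 members' windows. The Hoxa3 window held CTGTCA and the Hoxd1 window held none of these letters.

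The members lie in 3 clusters. Hoxb3 (Entrez Gene 15410), Hoxb2 (103889) and Hoxb1 (15407) follow each other on the plus strand of chromosome 11, from 96214152 to 96238756, from 96241351 to 96244838 and from 96256578 to 96259082. Hoxa2 (15399, 52138599 to 52141811) and Hoxa3 (15400, 52146041 to 52190316) lie on the minus strand of chromosome 6. Hoxd3 (15434, 74542271 to 74578786) and Hoxd1 (15429, 74593324 to 74595486) lie on the plus strand of chromosome 2. The library kit does not mark strand and the counting setting is not stated, so reads of a member and of an overlapping gene cannot be told apart where their exons coincide. In GENCODE, exons of counted genes on the opposite strand covered 51.5% of the Hoxb3 exon bases, 29.7% of those of Hoxb2, 15.9% of Hoxa3, 14.5% of Hoxa2 and 5.38% of Hoxd3, and none of Hoxb1 or Hoxd1. The gene opposite Hoxb3 and Hoxb2, Hoxb3os, was itself at mean levels of 3.69 to 4.41 CPM (read counts relative to the scaled library size) across the genotypes, and did not pass the test in any comparison. Hoxd3 also shares 5.67% of its exon bases with Hoxd4 on the same strand. For every member but Hoxd1, the gene length in the count files was shorter than the GENCODE exon bases. It was 3721 against 5138 bases for Hoxb3 and 1631 against 3488 for Hoxb2, so these shares need not hold for the exons that were counted.

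Counts per embryo summed to between 14407277 and 45665680. The labels were checked with Kat6b, which was at 155 to 227 CPM in the Kat6a+/+Tg(Kat6b) embryos against 42.6 to 48.2 CPM in wild type, and at 192 to 203 CPM in the Kat6a-/-Tg(Kat6b) embryos against 46.5 to 51.0 CPM in Kat6a-/-Kat6b+/+ embryos (two-sided exact permutation test, p = 0.0286 for each, the smallest p that 4 against 4 allow). Whole-gene counts of Kat6a, 189 to 218 CPM in Kat6a-/-Kat6b+/+ and 176 to 211 CPM in wild-type embryos, also take in the exons that the null allele keeps and so do not check the deletion. Of the markers of tissue outside the embryo, those of trophoblast summed to at most 0.719 CPM and those of decidua to at most 1.53 CPM in every embryo. The 9 hindbrain markers summed to 218 to 225 CPM in wild type and to 211 to 221 CPM in Kat6a-/-Kat6b+/+ embryos. The sums were 219 to 228 CPM in Kat6a+/+Tg(Kat6b) and 210 to 224 CPM in Kat6a-/-Tg(Kat6b) embryos. Irx3 and Epha4 had the highest levels of the 9 (medians of 90.4 and 75.5 CPM) and Egr2 the lowest (0.779 CPM). The sum therefore could not show a change in the markers at low levels.

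Per length, the members differed several-fold in wild-type embryos. Hoxb2, which acts with Hoxb1 in the hindbrain, had the highest mean level at 20.5 ± 1.89 RPKM (CPM divided by the gene length in kilobases, SD, n = 4). Hoxb3, expressed from the caudal hindbrain backwards, followed at 19.9 ± 1.03 RPKM, and these neighbours could not be ordered, since Hoxb2 was the higher in 2 of 4 embryos. Hoxd3, needed for the first cervical vertebrae, was at 14.97 ± 1.31 RPKM, below Hoxb3 in 4 of 4 embryos. Hoxa2, which patterns the second pharyngeal arch, was at 13.8 ± 0.730 RPKM, and its range overlapped that of Hoxd3. Hoxb1, which gives a single hindbrain segment, r4, its identity, was at 9.75 ± 1.68 RPKM and Hoxa3, needed for the thymus and parathyroid, at 8.54 ± 1.03 RPKM, with overlapping ranges. Hoxd1 was the lowest at 2.81 ± 0.338 RPKM, with no overlap with Hoxa3, and its 56 to 355 counts per embryo gave it the least precision. The order by mean level was the same in both genotypes with the transgene, whereas in Kat6a-/-Kat6b+/+ embryos Hoxd3 stood below Hoxa2 and Hoxb1 below Hoxa3, as the plot of the levels by genotype shows.

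**Figure D1:**
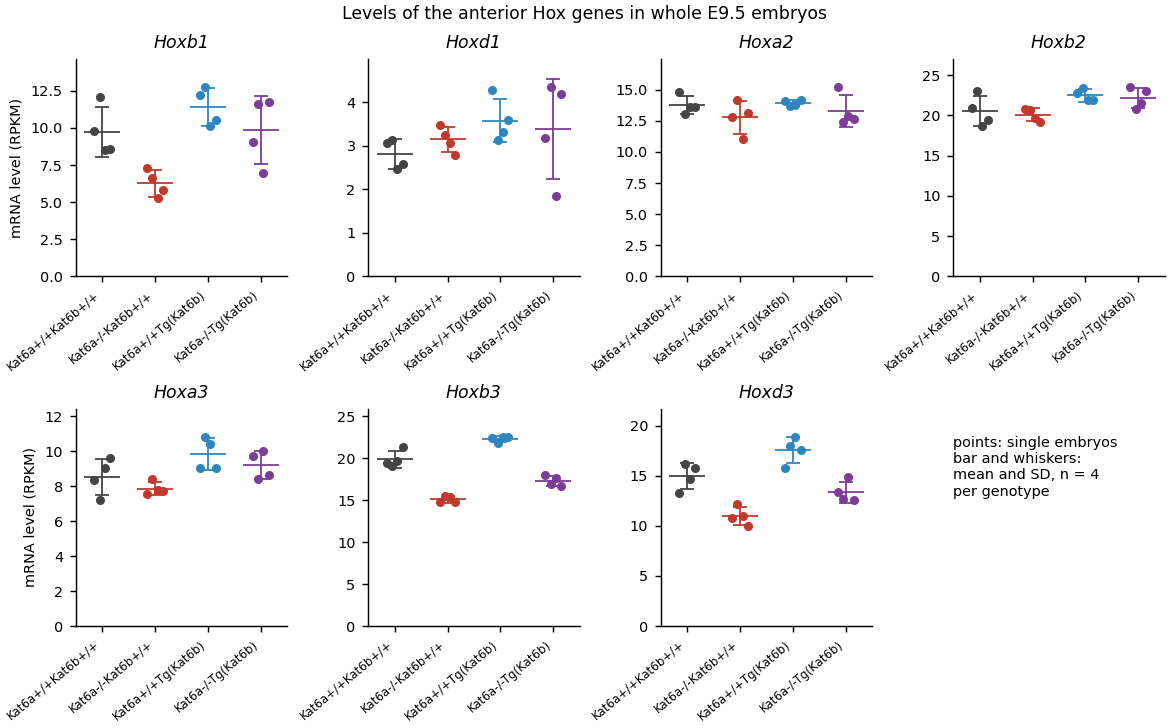
Level of each anterior Hox gene in RPKM (vertical axis, from 0) in each of the 16 embryos, by genotype (horizontal axis), with points for embryos and bars for the mean and SD of 4. Hoxb1, Hoxb3 and Hoxd3 are lowest in the Kat6a-/-Kat6b+/+ embryos, with no overlap with wild type.

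In Kat6a-/-Kat6b+/+ vs. wild-type embryos, 3 of the 7 members were downregulated and none was upregulated (edgeR FDR under 0.05, adjusted over all 15679 genes). Of all tested genes, 0.938% were downregulated and 0.944% upregulated in this comparison. The 3 were Hoxb1, Hoxb3 and Hoxd3, which are 1 of 2 genes of group 1, none of group 2 and 2 of 3 genes of group 3. The median log2 fold change of the 7 was -0.10, beside 0.0033 for all genes tested. The groups of embryos overlapped for the other 4 members, and did not overlap in 7.97% of all genes.

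Hoxb1 showed the largest fall of the members. Its levels were 20.4, 25.1, 17.6 and 17.8 CPM in the wild-type embryos and 15.2, 13.8, 10.9 and 12.1 CPM in the Kat6a-/-Kat6b+/+ embryos. Every Kat6a-/-Kat6b+/+ embryo was thus below every wild-type embryo. The level in the edgeR fit fell by 36.5% (log2 fold change -0.66 ± 0.0729, SE, edgeR FDR = 1.79e-05). With no surrogate variable in the model the fold change was nearly the same, -0.64, but the call was lost (FDR = 0.0864).

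Hoxb3 was the most even of the members. The wild-type embryos had 72.4, 70.9, 73.0 and 79.6 CPM and the Kat6a-/-Kat6b+/+ embryos 54.9, 57.5, 57.4 and 55.0 CPM, which left a wide gap between the genotypes. The level fell by 23.7% (log2 fold change -0.39 ± 0.0388, SE, edgeR FDR = 3.27e-06), and this held in all 28 alternative fits. Hoxd3 was at 38.4, 46.8, 42.6 and 45.9 CPM in wild type and at 31.2, 35.2, 31.8 and 29.0 CPM in Kat6a-/-Kat6b+/+ embryos, again without overlap. It fell by 26.4% (log2 fold change -0.44 ± 0.0747, SE, edgeR FDR = 0.0032). With litter as a block in place of the surrogate variables its fold change was -0.42 and the call was lost (FDR = 0.225).

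The genes of group 2, and the remaining genes of groups 1 and 3, had intervals that included no difference. The log2 fold change of Hoxb2 was -0.03, with a 95% interval from -0.15 to 0.09, and that of Hoxa2 was -0.10, with an interval from -0.26 to 0.06. Hoxa3 was also at -0.10, from -0.23 to 0.04. Hoxd1, linked to sensory neuron development, was at 0.13, but its interval from -0.16 to 0.43 was the widest of the 7. The edgeR FDR of these 4 genes was between 0.514 and 0.846.

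Ratios of neighbours within an embryo do not depend on the scaling of the library. For each Hoxb2 read, wild-type embryos had 0.563 to 0.670 reads of Hoxb1 and Kat6a-/-Kat6b+/+ embryos 0.341 to 0.447. For Hoxb3 over Hoxb2 the ranges were 1.89 to 2.51 and 1.61 to 1.79, and for Hoxd3 over Hoxd1 they were 6.74 to 9.54 and 4.82 to 5.83. These 3 ratios did not overlap between the genotypes, whereas that of Hoxa3 to Hoxa2 did (0.872 to 1.11 in wild type and 0.931 to 1.11 in Kat6a-/-Kat6b+/+ embryos). Each of the 3 reached the smallest p that 4 embryos against 4 allow (two-sided exact permutation test, p = 0.0286), but over the 16 ratio tests made the Benjamini-Hochberg adjusted value was 0.114, so none passed. The same held for Hoxb3 over Hoxb2 in Kat6a-/-Tg(Kat6b) compared with wild-type embryos, at 1.66 to 1.86 against 1.89 to 2.51, and for no other ratio tested.

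**Figure D2:**
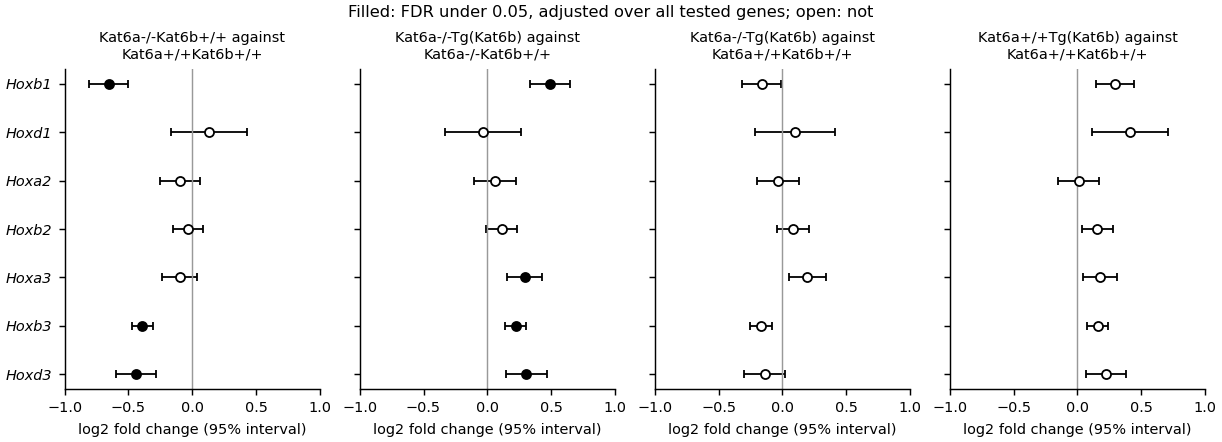
Log2 fold change (horizontal axis) of each member in 4 comparisons, with 95% intervals from the edgeR fit. Filled points have an FDR under 0.05: Hoxb1, Hoxb3 and Hoxd3 in the first panel, these and Hoxa3 in the second, and none in the other panels.

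Litter is a batch that the labels give, and wild-type littermates allowed a comparison within it. Relative to the wild-type embryo of its own litter, each of the 4 Kat6a-/-Kat6b+/+ embryos had less Hoxb3 mRNA, by a log2 difference of -0.40 to -0.30. Hoxb1 was also lower in 4 of 4, by -0.56 and -0.42 in litter 801 and by -1.19 and -1.04 in litter 803. Hoxd3 was lower in 4 of 4, by -0.30 and -0.13 in litter 801 and by -0.69 and -0.56 in litter 803. The wild-type embryos of both litters and the Kat6a-/-Kat6b+/+ embryos of litter 803 were male, and those of litter 801 female. For Hoxb1 and Hoxd3 the differences were larger in litter 803, which was not tested with a single wild-type embryo per litter. Hoxb2 was lower in 4 of 4 as well, but by as little as -0.0045, while Hoxa2 was lower in 3, Hoxd1 in 2 and Hoxa3 in 1 of the 4. How many of all tested genes were lower in 4 of 4 was not counted. In a fit of litters 801 and 803 alone, chosen after seeing the data, Hoxb1 was at -0.80 (edgeR FDR = 0.0276) and Hoxd3 at -0.42 (edgeR FDR = 0.127).

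**Figure D3:**
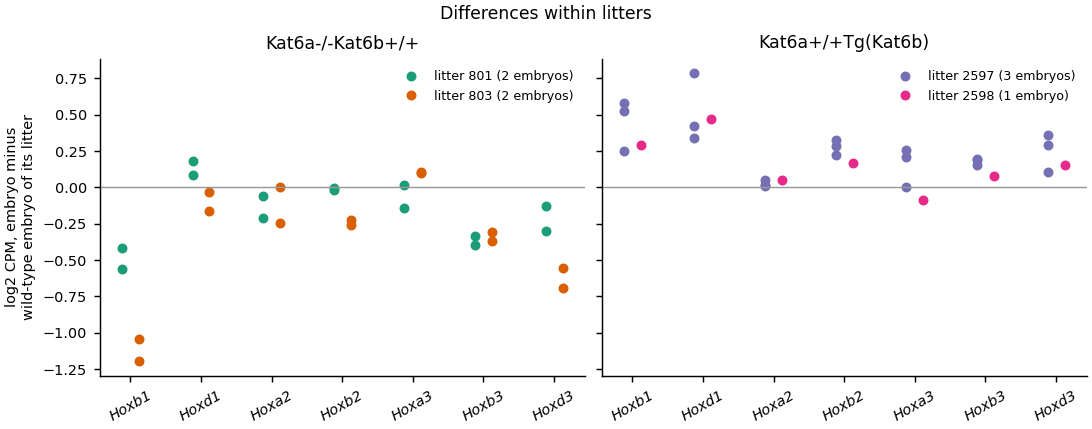
Difference in log2 CPM between each embryo and the wild-type embryo of its litter (vertical axis) for each member (horizontal axis), for Kat6a-/-Kat6b+/+ embryos on the left and Kat6a+/+Tg(Kat6b) embryos on the right, coloured by litter. Hoxb1, Hoxb3 and Hoxd3 are below 0 in all 4 embryos on the left and above 0 in all 4 on the right.

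Adding the Kat6b transgene to the Kat6a null alleles was examined by comparing Kat6a-/-Tg(Kat6b) with Kat6a-/-Kat6b+/+ embryos. Here 4 of the 7 members were upregulated in the embryos with the transgene: the 3 that were lower in Kat6a-/-Kat6b+/+ than in wild-type embryos, and Hoxa3. Both comparisons use the same Kat6a-/-Kat6b+/+ embryos. Of all tested genes, 3.39% were upregulated. The median log2 fold change of the 7 was 0.22, beside -0.0049 for all genes. The embryos with the transgene had 18.7, 24.1, 14.5 and 24.5 CPM of Hoxb1, of which 14.5 CPM fell within the range of the Kat6a-/-Kat6b+/+ embryos and the other values were above all of them. The log2 fold change of Hoxb1 was 0.49 ± 0.0744 (SE, edgeR FDR = 0.000528), and with only the 2 genotypes in the fit it was 0.67 and not called (FDR = 0.0511). The tail bud markers T, Nkx1-2, Fgf8 and Wnt3a, which mark the axial progenitors where Hox genes are first switched on, summed to 43.5 to 53.8 CPM in these embryos and to 32.4 to 44.6 CPM in Kat6a-/-Kat6b+/+ embryos. Of the 4 tail bud markers 1, Nkx1-2, was upregulated in this comparison (0.65), as were Six3 of the forebrain markers (0.40) and Irx3 of the hindbrain markers, whereas Nes (-0.19) and Meox1 (-0.21) were lower. The 8 markers of yolk sac endoderm or liver bud summed to 41.1 to 53.4 and to 10.0 to 18.0 CPM in the same groups, and the part of these markers in the result was not tested.

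Hoxb3 was at 66.8, 63.2, 65.5 and 62.2 CPM in the Kat6a-/-Tg(Kat6b) embryos, above all Kat6a-/-Kat6b+/+ embryos, and rose by 16.6% (log2 fold change 0.22, edgeR FDR = 0.00265). Hoxd3 was at 38.9, 36.8, 43.1 and 36.5 CPM, also above all of them, and rose by 23.4% (log2 fold change 0.30, edgeR FDR = 0.0223). Hoxa3 had 27.3, 23.6, 28.2 and 24.4 CPM with the transgene and 21.2, 23.7, 21.9 and 21.7 CPM without it, an overlap of a single embryo of each group. Its log2 fold change was 0.29 (edgeR FDR = 0.0122). Without surrogate variables Hoxa3 was at 0.22 and not called (FDR = 0.148), and it also lost its call without replicate 1 (FDR = 0.054) or 3 (0.0549) of the Kat6a-/-Tg(Kat6b) embryos. Hoxd3 lost its call without either of the same embryos (FDR = 0.053 and 0.0943), or without replicate 1, 3 or 4 of the Kat6a-/-Kat6b+/+ embryos (0.0833, 0.0564 and 0.0675). Groups without overlap made up 15.2% of all genes in this comparison. The FDR of Hoxb2, Hoxa2 and Hoxd1 was between 0.246 and 0.912.

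Set against wild-type embryos, none of the 7 members was called in Kat6a-/-Tg(Kat6b) embryos, where 0.67% of all tested genes were called in either direction. At an unadjusted p under 0.05 there were 3 members, beside 12.7% of all genes. DESeq2 called 1 member, Hoxb3, and 1.56% of all genes. Hoxb3 came closest in edgeR: all 4 embryos, at 62.2 to 66.8 CPM, were below all wild-type embryos, at 70.9 to 79.6 CPM, with a log2 fold change of -0.17 (edgeR FDR = 0.0564), and without surrogate variables it was called at -0.20 (FDR = 0.0291). Groups that did not overlap were found for 7.1% of all genes in this comparison. For Hoxb1 the mean level was 20.5 ± 4.77 CPM against 20.2 ± 3.48 CPM in wild type (SD, n = 4 each). The fitted log2 fold change of Hoxb1, -0.16 with surrogate variables and 0.03 without them, did not keep its sign. Hoxd3 was at -0.14 (95% interval from -0.30 to 0.02, edgeR FDR = 0.481) and Hoxa3 at 0.20 (from 0.05 to 0.34, edgeR FDR = 0.223).

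In Kat6a+/+Tg(Kat6b) compared with wild-type embryos none of the 7 members was called either, and only 0.14% of all tested genes were called. The estimates of all 7 were nevertheless above 0, with a median of 0.18 beside 0.0016 for all genes, and 6 of the 7 had an unadjusted p under 0.05, as had 11.5% of all genes. The exception was Hoxa2, at 0.0088. Among the marker lists, the tail bud gene T was higher in these embryos (0.59) and the neural progenitor gene Nes lower (-0.21), while the 4 tail bud markers summed to 44.4 to 52.0 CPM against 33.4 to 54.7 CPM in wild type, and the 5 neural progenitor markers to 756 to 846 against 774 to 854 CPM. The part of either in the members' levels was not tested. Hoxb3 had 83.2, 81.1, 83.7 and 83.9 CPM, all above the wild-type embryos, with a log2 fold change of 0.16 (edgeR FDR = 0.11), and groups without overlap made up 4% of all genes. Hoxb1, at 25.4, 26.4, 21.0 and 21.9 CPM, had a log2 fold change of 0.30 (edgeR FDR = 0.101), and its lower embryos were within the wild-type range. DESeq2, which called 1.4% of all genes, called both Hoxb1 (FDR = 0.0203) and Hoxb3 (FDR = 0.027). With an embryo left out, edgeR called Hoxb3 without replicate 4 of the wild-type embryos (FDR = 0.0329) and Hoxb1 without replicate 3 of the Kat6a-/-Tg(Kat6b) embryos (FDR = 0.0458). Hoxd1 had the largest estimate, 0.41, with the widest interval, from 0.11 to 0.71 (edgeR FDR = 0.243), and Hoxd3, Hoxa3 and Hoxb2 were at 0.22, 0.18 and 0.16.

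These wild-type embryos are the ones to which the Kat6a-/-Kat6b+/+ embryos were compared. Within litters 2597 and 2598, each of the 4 Kat6a+/+Tg(Kat6b) embryos was compared with the wild-type embryo of its litter. The log2 differences were 0.25 to 0.58 for Hoxb1, 0.34 to 0.78 for Hoxd1, 0.17 to 0.33 for Hoxb2, 0.08 to 0.20 for Hoxb3 and 0.10 to 0.36 for Hoxd3. For Hoxa2 they were 0.0061 to 0.053. Hoxa3 was higher in 3 of the 4 embryos. How many of all tested genes were higher in 4 of 4 embryos was not counted. The differences within a litter share 1 wild-type embryo and are therefore not independent of each other.

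Among embryos that all carried the transgene, Kat6a-/-Tg(Kat6b) embryos were compared with Kat6a+/+Tg(Kat6b) embryos. The former came from litters 483 and 498 and the latter from litters 2597 and 2598. Loss of Kat6a and litter therefore cannot be told apart in this comparison, nor in the interaction given below. Here Hoxb1, Hoxb3 and Hoxd3 were downregulated, with log2 fold changes of -0.46, -0.33 and -0.36 (edgeR FDR = 0.00306, 0.000232 and 0.0195), while 1.14% of all tested genes were downregulated. Hoxb3 fell from 81.1 to 83.9 CPM to 62.2 to 66.8 CPM and Hoxd3 from 45.8 to 54.8 CPM to 36.5 to 43.1 CPM, both without overlap, which held for 10.5% of all genes. The Hoxb1 ranges, 21.0 to 26.4 and 14.5 to 24.5 CPM, did overlap, and without surrogate variables Hoxb1 was at -0.20 with an FDR of 0.534. Hoxd3 lost its call without replicate 1, 2 or 4 of the Kat6a-/-Tg(Kat6b) embryos (FDR = 0.0551, 0.0521 and 0.0635), and Hoxd3os1, whose exons cover 5.07% of those of Hoxd3 on the opposite strand, was also lower (-2.01). Among the marker lists, Sox1 (-0.23), Sox2 (-0.21) and the somite gene Meox1 (-0.19) were lower and the endothelial gene Cdh5 higher (0.23) in this comparison. The 5 neural progenitor markers summed to 689 to 782 CPM against 756 to 846 CPM, the 8 somite markers to 161 to 174 against 182 to 186 CPM, and the 3 endothelial markers to 247 to 273 against 226 to 246 CPM. Their part in the lower members was not tested. The Kat6a-/-Tg(Kat6b) embryos are those of the comparisons above. Whether the effect of Kat6a loss differed with and without the transgene was tested as an interaction, for which no member was called and 0.153% of all genes were. At an unadjusted p under 0.05 there was 1 member, Hoxd1, and 14.6% of all genes, so that the members' share was near the background. The interaction of Hoxb1 was 0.20 (95% interval from -0.02 to 0.42, edgeR FDR = 0.387).

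Summed over the 7 members, mRNA levels were 218 to 231 CPM in wild type, 178 to 195 in Kat6a-/-Kat6b+/+, 249.8 to 258.7 in Kat6a+/+Tg(Kat6b) and 212 to 223 CPM in Kat6a-/-Tg(Kat6b) embryos. The sum was thus lowest in the 4 Kat6a-/-Kat6b+/+ embryos and highest in the 4 Kat6a+/+Tg(Kat6b) embryos, and the remaining genotypes overlapped. By mean level, Kat6a+/+Tg(Kat6b) embryos were the highest for all 7 members and Kat6a-/-Kat6b+/+ embryos the lowest for 6, the exception being Hoxd1. For Hoxa2 the highest mean, 24.8 CPM, was close to the 24.5 CPM of wild type. The share of all tested genes with such an order was not counted. The sex of the embryo made no detectable difference to any member (log2 difference of female minus male embryos from -0.03 to 0.14, edgeR FDR of at least 0.998), while 0.0765% of all tested genes were called by sex.

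Pooled over the genotypes, the spread between embryos of the same genotype was largest for the genes of group 1. The SD of log2 CPM within genotypes was 0.25 for Hoxb1, above 96.1% of the 2020 genes within 0.5 log2 units of its level, whose median was 0.11. Hoxd1 had an SD of 0.31, above 91.6% of 1231 genes at its level, whose median was 0.19. This came from the Kat6a-/-Tg(Kat6b) embryos, in which the SD of Hoxd1 was 0.56. In the other genotypes it was 0.13 to 0.19, no larger than is usual at that level. Hoxb3 was the opposite, with an SD of 0.05, above 12.1% of 2428 genes. The other members lay between, with SDs of 0.09 to 0.13.

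The residuals of the members from their genotype means, over the 16 embryos, were compared pair by pair. Hoxb1 and Hoxd1, which lie on different chromosomes, had the highest correlation (Pearson r = 0.81, Spearman rho = 0.74), and r was 0.73 without the 2 embryos farthest from the median of Hoxb1. All 5 pairs of the same paralog group had a positive r (0.23 to 0.81). Without the 2 farthest embryos, however, the group 2 pair Hoxa2 and Hoxb2 fell from 0.23 to 0.04, and Hoxa3 and Hoxb3 from 0.61 to 0.36. All 6 pairs of a group 1 and a group 3 gene had a negative r (-0.66 to -0.30). Of the 5 pairs on the same chromosome 2 were positive and 3 negative, from -0.63 for Hoxb1 and Hoxb3 to 0.57 for Hoxb1 and Hoxb2. The group 1 pair followed the same embryos: in the third Kat6a-/-Tg(Kat6b) embryo, for example, both Hoxb1 (14.5 CPM) and Hoxd1 (3.45 CPM) were at the lowest value of their genotype. Values of an embryo share a library, and the residuals also followed the second surrogate variable, which was estimated from all genes, these included: r was -0.83 for Hoxb1, -0.65 for Hoxd1 and -0.62 for Hoxb2, against 0.81 for Hoxa3, 0.71 for Hoxb3, 0.30 for Hoxd3 and 0.13 for Hoxa2. These correlations are descriptions and carry no test.

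**Figure D4:**
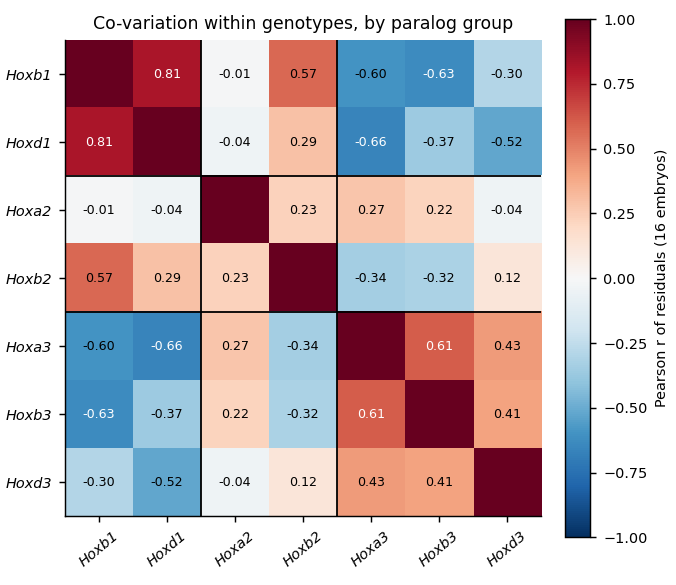
Pearson r between the residuals of each pair of members from their genotype means, over 16 embryos, with genes ordered by paralog group and black lines between groups. Pairs of the same group are positive (up to 0.81 for Hoxb1 and Hoxd1) and pairs of groups 1 and 3 are negative (down to -0.66 for Hoxd1 and Hoxa3).

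Over all 16 embryos, genotype differences included, the genes whose log2 CPM was most like the mean of the 7 members were Emilin2 (Pearson r = 0.89), Hoxd4 (0.88), Zfp946 (0.88), Irx3 (0.87) and Hoxa5 (0.87), of which Hoxd4 lies next to Hoxd3 in its cluster. For single members the most alike were Hoxb5os for Hoxb1 (r = 0.92), Yrdc for Hoxd1 (0.84), Repin1 for Hoxa2 (0.84), Noct for Hoxb2 (0.83), Ap4m1 for Hoxa3 (0.90), Dlx6os1 for Hoxb3 (0.96) and Nrbp2 for Hoxd3 (0.93). Each was chosen as the highest r among all other tested genes, and these values are descriptions with no test.

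The Hox genes of groups 4 to 13, which pattern the trunk and tail, were set beside the anterior members. Of 30 such genes tested, 6 were downregulated and none was upregulated in Kat6a-/-Kat6b+/+ vs. wild-type embryos, led by Hoxa6 and Hoxd4 (log2 fold changes of -0.62 each), and the median of the 30 was -0.23. With the transgene added to the null alleles, 15 of the 30 were upregulated, led by Hoxa10 (0.77) and Hoxa6 (0.69), with a median of 0.34. In Kat6a-/-Tg(Kat6b) compared with wild-type embryos 3 posterior genes were above wild type, Hoxa10 (0.42), Hoxc9 (0.42) and Hoxc10 (0.35), and none of the 7 anterior members was called, a difference between the lists that was not tested. In Kat6a+/+Tg(Kat6b) embryos none of the 30 was called. Among 9 noncoding RNA genes of the clusters, Hoxb5os (-0.72) and Hoxaas2 (-0.56) were downregulated in Kat6a-/-Kat6b+/+ embryos. With the transgene added to the null alleles, 3 of the 9 were upregulated, Hoxb5os (0.62), Hoxaas2 (0.53) and Hoxa11os (0.43). Hoxaas2 is opposite Hoxa3, which was called in the latter comparison too, and covers 7.31% of its exon bases. Mean Hoxaas2 levels there were 8.57 CPM with and 5.80 CPM without the transgene, and their part in the Hoxa3 call was not tested.

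**Figure D5:**
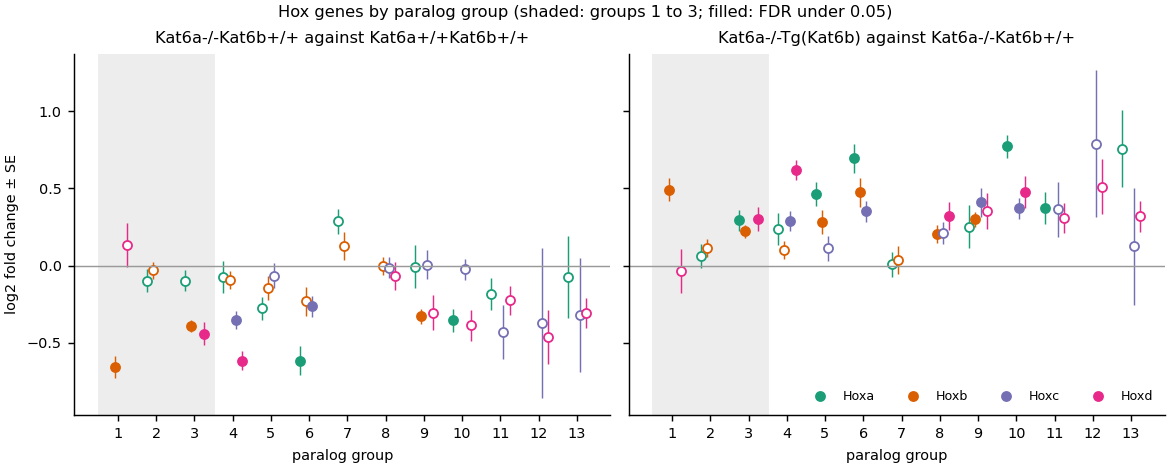
Log2 fold change and SE (vertical axis) of the Hox genes by paralog group (horizontal axis) and cluster (colour), with groups 1 to 3 shaded and filled points for an FDR under 0.05. In the left panel the members range from -0.66 (Hoxb1) to 0.13 (Hoxd1), and in the right panel from -0.04 (Hoxd1) to 0.49 (Hoxb1).

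Genes known to act on anterior Hox genes were examined as a list of 24, all of which were tested. In Kat6a-/-Kat6b+/+ vs. wild-type embryos, 4 were downregulated: Cyp26b1 (log2 fold change -0.69) and Cyp26c1 (-0.52), which degrade retinoic acid, Aldh1a2 (-0.27), which makes it, and Cdx2 (-0.42), a direct activator of Hox genes. Bmi1, a polycomb component that represses Hox genes, was upregulated (0.23). With the transgene added to the null alleles 5 were upregulated, among them Cdx2 (0.66), Cdx4 (0.60), Cyp26b1 (0.39) and Cyp26c1 (0.36). Against wild type, Cyp26b1 (-0.30) and Aldh1a2 (-0.28) were still lower in Kat6a-/-Tg(Kat6b) embryos, and Cdx2 was higher in Kat6a+/+Tg(Kat6b) embryos (0.51). Egr2, the hindbrain factor that acts on Hoxa2 and Hoxb2, was called in no comparison. It was at 0.473 to 1.24 CPM, with at most 40 counts in an embryo, so that its estimates were imprecise. In Kat6a-/-Kat6b+/+ vs. wild-type embryos its log2 fold change was -0.38 ± 0.28 (SE). Of 9 cofactor genes of the PBX, MEIS and PKNOX families, Pknox1 was lower in Kat6a-/-Kat6b+/+ embryos (-0.30), and Pknox1 (0.22) and Meis1 (0.14) were higher in Kat6a-/-Tg(Kat6b) than in Kat6a-/-Kat6b+/+ embryos. None of the 9 hindbrain markers was called in Kat6a-/-Kat6b+/+ vs. wild-type embryos, while Irx3 (0.17) was higher in Kat6a-/-Tg(Kat6b) than in Kat6a-/-Kat6b+/+ embryos. Neural crest markers, of which 1 of 7, Foxd3, was lower (-0.46), summed to 430 to 454 CPM in Kat6a-/-Kat6b+/+ and to 472 to 514 CPM in wild-type embryos, and their part in the lower members was not tested. In the same comparison 2 of 8 forebrain and midbrain markers, Six3 and Lhx2, were lower (-0.34 each), and none of the markers of neural progenitors, somites, tail bud, heart, primitive erythroid cells, endothelium or yolk sac endoderm was called.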

How the data were processed

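Libraries from 16 whole embryos were prepared with a kit that does not mark strand and sequenced as paired ends. The authors aligned the reads to mm39 with Rsubread, and the deposited values are read counts per gene, with Entrez Gene identifiers, symbols and gene lengths. Per the submitters' processing notes, bcl2fastq and featureCounts were used, and their versions and strand setting are not given in the sources used here. All 16 count columns were used, and groups, litters and sexes came from the labels.

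Genes were kept by filterByExpr (minimum count 10, minimum total 15), which left 15679 genes with at least 99.95% of the counts of every embryo. Counts were scaled by TMM (factors from 0.985 to 1.02) and fitted over all 4 genotypes with the robust quasi-likelihood test of edgeR 4.0.16 in R 4.3.3, with 2 surrogate variables from sva 3.50.0 and a prior count of 2. The first surrogate variable separated the sexes. FDR values are Benjamini-Hochberg adjusted over all tested genes, with 0.05 as the threshold. The script was tested on simulated independent counts with no surrogate variables in the fit, so the surrogate variable step was not tested. DESeq2 1.42.0, limma-voom (limma 3.58.1), other filters, scalings and covariates, and leaving out each embryo were alternatives. Replicates differed by more than sampling noise (chi-square of 1.81 to 14.9 for each degree of freedom). Depth limits precision most for Hoxd1, the member with the fewest counts.

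All 7 members are named. The members and all gene lists were chosen with earlier results of these data known. Genes of the lists are named where they were called or lead a list, except that some are not reported here, and the genes most like a member are those with the highest Pearson r of log2 CPM.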

Additional observations from a re-analysis of the deposited data

How the results depend on the processing

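None of the 10 called differences, of 26 reported for single members, changed direction under the alternatives run, which were 28 for each difference between Kat6a-/-Kat6b+/+ and wild-type embryos and 26 for each of the others. The count of members called in Kat6a-/-Kat6b+/+ vs. wild-type embryos stayed at 2 or 3, and at 3 whichever embryo was left out. In Kat6a-/-Tg(Kat6b) compared with wild-type embryos the count was 1 (Hoxb3) in place of 0 with no or 1 surrogate variable, DESeq2, no filter or sex as covariate, and 0 to 1 when an embryo was left out. Between Kat6a-/-Tg(Kat6b) and Kat6a-/-Kat6b+/+ embryos it was 2 in place of 4 with only the 2 genotypes in the fit or at an FDR under 0.01, and 2 to 4 when an embryo was left out. In Kat6a+/+Tg(Kat6b) compared with wild-type embryos it was 2 with DESeq2 and 0 to 1 when an embryo was left out. For the interaction it was 0 in all 26 alternatives. The replicate numbers did not pair the embryos (correlation of deviations from -0.26 to 0.22, over 0.1 in 10 of 24 pairs). With the replicate block the count in Kat6a-/-Tg(Kat6b) compared with wild-type embryos was 1 (Hoxb3), and Hoxb1 was at 0.016 there. Estimates of uncalled members changed sign: Hoxb1 in Kat6a-/-Tg(Kat6b) compared with wild-type embryos (0.027 with no and 0.0058 with 1 surrogate variable, 0.011 with sex as covariate, 0.029 with the 2 genotypes alone), Hoxa3 in Kat6a-/-Kat6b+/+ vs. wild-type embryos (0.021 with litter as block, 0.017 in litters 801 and 803), Hoxb2 there (-0.064 to 0.010 when an embryo was left out) and Hoxa2 in Kat6a+/+Tg(Kat6b) compared with wild-type embryos (-0.0091 with at least 10 counts in every embryo, -0.014 to 0.049 when an embryo was left out). Hoxb1 in Kat6a-/-Kat6b+/+ vs. wild-type embryos was not called with 1 surrogate variable (FDR = 0.0775) or sex as covariate (FDR = 0.0802). The causes were not tested. A litter block could not be fitted for comparisons with Kat6a-/-Tg(Kat6b) embryos, and the interaction could not be fitted with 2 genotypes alone.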
